A study of Apis mellifera with 48 samples.

Results

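Vitellogenin was followed as a single gene, through the row GB49544 of gene set OGS3.2, in mushroom body libraries of polyadenylated RNA, 1 for each of 48 honey bees (Apis mellifera). The row was taken by its identifier, 1 of the 15314 gene rows listed for every bee, and each level is given as CPM, the reads of that row for every 1000000 reads counted in gene rows of the same library. The deposited tables do not pair identifiers with names, so the identity of GB49544 rests on the gene set and was not checked against a sequence. The bees were 12 active workers collected at 3 pm while preparing to forage, 12 inactive workers collected at 9 am, 12 active drones collected at 3 pm shortly before flight and 12 inactive drones collected at 9 am. All came from 3 colonies, whose queens had mated naturally and were not related, so that bees of the same colony have a mother and a hive in common. Their age is not given in the sources used here. Active bees were told apart by watching and marking them. Activity and clock time divided the bees in the same way, so the effects of one and of the other cannot be told apart.

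Vitellogenin is the precursor of egg yolk protein in insects and belongs to the large lipid transfer proteins. In the honey bee it is made mainly in the fat body of the abdomen and secreted into the haemolymph, from which queens deposit it in eggs and nurse workers draw on it to make brood food. Workers, females that do not normally reproduce, have high vitellogenin as nurses and low vitellogenin with high juvenile hormone as foragers, and knockdown of the gene brings foraging forward. Drones are haploid males with little need of yolk protein, and they carry vitellogenin at low titres. In the brain, the protein has been found in glial cells, and the mushroom bodies are the paired centres of learning, memory and sensory integration.

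Reads counted in genes ran from 6.69 to 27.1 M per library, so that 1 read was worth between 0.0369 and 0.149 CPM. Each bee was 1 library. The labels also give each library a pool, 1 to 7, without saying what was pooled. The pools mixed both sexes except pool 7, which held 1 worker. Some drones stood apart in vitellogenin, above all active drone 7 of colony 3 and inactive drone 3 of colony 1. Inactive drone 8 and active drone 9, both of colony 3, followed at a lower level. Of these drones, active drone 9 was in pool 3 and the others were in pool 6. The main comparisons are also given without the 2 highest drones, or without pool 6. The identifiers matched 0 entries of the name table of assembly Amel_HAv3.1, so lists of markers for fat body, head glands, glia, Kenyon cells and haemocytes, and the genes of the juvenile hormone and insulin network, could not be found in the tables. The purity of the dissected tissue was therefore not tested. In these bulk samples, a difference in the number of cells that express the gene cannot be told apart from a difference in its RNA per cell.

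Vitellogenin was read in 48 of 48 bees, at low levels in most of them and at high levels in a few drones. Active workers had 1.46 CPM at the lowest, 2.58 CPM at the median and 5.08 CPM at the highest. Inactive workers had 0.783, 2.47 and 9.39 CPM in the same order. Active drones had 1.56, 4.53 and 34.8 CPM, and inactive drones 2.16, 4.42 and 45.1 CPM. The drone groups therefore lay above the worker groups at the median, and the ranges of all 4 groups overlapped. By medians the order of the groups from high to low was active drones, inactive drones, active workers and inactive workers, and the difference between neighbours of the same sex passed no test. The means followed the few high bees more closely than the medians did, at 2.64 ± 0.925 CPM in active workers, 3.58 ± 2.78 CPM in inactive workers, 7.51 ± 9.27 CPM in active drones and 8.30 ± 12.0 CPM in inactive drones (SD, n = 12 each).

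Bee by bee, the active workers were the most even group. Active workers 1 to 12 had 1.55, 5.08, 2.48, 2.37, 2.78, 2.32, 2.84, 2.78, 1.46, 3.24, 2.68 and 2.14 CPM, a 3.48-fold range. Inactive workers 1 to 12 had 1.85, 3.82, 0.817, 2.05, 4.94, 2.89, 9.39, 6.38, 7.04, 1.42, 1.61 and 0.783 CPM, a 12.0-fold range. All 12 active workers lay within the range of the inactive ones, of which 3 lay above and 3 below every active worker.

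Active drones 1 to 12 had 5.74, 7.58, 2.46, 2.81, 8.08, 5.44, 34.8, 1.96, 13.7, 1.56, 3.61 and 2.42 CPM. Inactive drones 1 to 12 had 5.29, 4.26, 45.1, 4.93, 2.16, 3.96, 5.89, 14.6, 3.13, 2.34, 3.36 and 4.58 CPM. In each drone group 1 bee stood far above the rest and another was well above the remaining 10. Of the active drones, 10 of 12 lay within the range of the inactive ones. Active drone 7 and inactive drone 3 together gave 952 of the 2346 vitellogenin reads of all drones (40.6%).

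**Figure D1:**
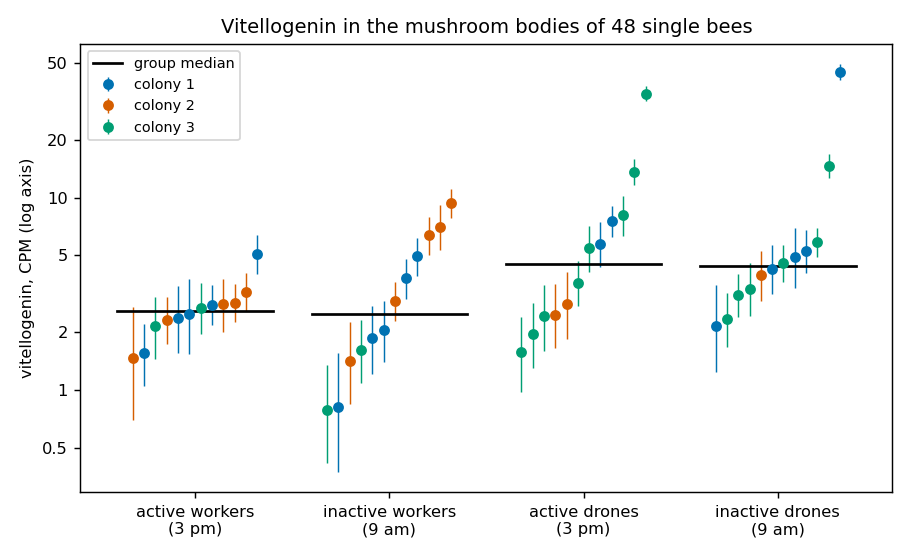
Vitellogenin level in CPM on a log axis for each of the 48 bees, ordered by level within each group and coloured by colony, with exact Poisson 95% intervals as bars and the group median as a black line. The worker medians are 2.58 and 2.47 CPM and the drone medians 4.53 and 4.42 CPM, and the highest bees are 2 drones at 34.8 and 45.1 CPM.

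Counting error was small beside the differences between bees in drones and inactive workers, and a larger part of them in active workers. The number of vitellogenin reads was 10 to 79 in active workers, 9 to 131 in inactive workers, 21 to 483 in active drones and 16 to 469 in inactive drones. The highest bee, inactive drone 3, had 469 reads, with an exact Poisson 95% interval of 41.1 to 49.4 CPM, and active drone 7 had 483 reads in a deeper library. Sampling of reads alone would give 20.2% of the variance among active workers and 3.55% among inactive workers, but 0.721% among active drones and 0.504% among inactive drones. These intervals and shares cover counting error only.

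Workers had less vitellogenin in the mushroom bodies than drones, by a difference that passed the test over all bees and lost the call without its 2 highest drones. The 24 workers had a median of 2.58 CPM, a mean of 3.11 ± 2.09 CPM (SD) and a highest value of 9.39 CPM. The 24 drones had a median of 4.42 CPM, a mean of 7.91 ± 10.5 CPM (SD) and a highest value of 45.1 CPM. Of the drones, 18 of 24 lay above the worker median, and of the workers, 5 of 24 lay above the drone median. Above 5 CPM there were 4 workers and 10 drones, and above 10 CPM 0 workers and 4 drones. The worker median was 0.583 times the drone median, and the worker mean 0.394 times the drone mean.

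In the edgeR quasi-likelihood fit of all 48 libraries with colony as a covariate, the worker minus drone difference, averaged over both times, was -1.53 ± 0.43 on the log2 scale (SE), with a 95% interval of -2.41 to -0.65 and an adjusted p of 0.00341 over 11167 genes. In the same comparison 45.7% of all genes tested were called, and vitellogenin ranked 3243 by p, so a call was common there. At 3 pm the difference between workers and drones was -1.73 ± 0.57 (edgeR adjusted p = 0.0151, where 34.8% of genes were called). At 9 am it was -1.32 ± 0.56 and missed the threshold (edgeR adjusted p = 0.0641, where 31.9% of genes were called). Without inactive drone 3 the 9 am difference was -0.40 (edgeR adjusted p = 0.587). Whether workers and drones differed more at one time than at the other was tested as the difference between their responses, given with the activity comparison.

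A permutation test moved sex labels within colonies, on log2(CPM + 1). It averaged the worker minus drone differences of the colonies, each weighted by its numbers of workers and drones. The averaged difference was -0.85 (two-sided permutation p = 0.00364, adjusted over 4 permutation tests 0.0146). It passed in 48 of 48 repeats that each left out 1 bee, with permutation p from 0.00173 to 0.0119. The edgeR call passed in 47 of 48 such repeats. Without inactive drone 3 the edgeR difference was -0.89 (adjusted p = 0.0543), and without active drone 7 the difference at 3 pm was -1.23 (edgeR adjusted p = 0.0511).

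Without both of these drones, workers had a median of 2.58 CPM and the other 22 drones a median of 4.11 CPM and a mean of 4.99 ± 3.45 CPM (SD). The worker minus drone difference was then -0.74 with edgeR (adjusted p = 0.0635), and -0.59 in the permutation test (two-sided permutation p = 0.011). By time it was -0.96 at 3 pm (edgeR adjusted p = 0.067) and -0.52 at 9 am (edgeR adjusted p = 0.4). With terms for pool in the model, the difference was -1.01 (edgeR adjusted p = 0.0176). The direction was the same in all of the fits shown in the plot of the sex difference by setting, and its size ran from -0.63 to -2.04.

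**Figure D2:**
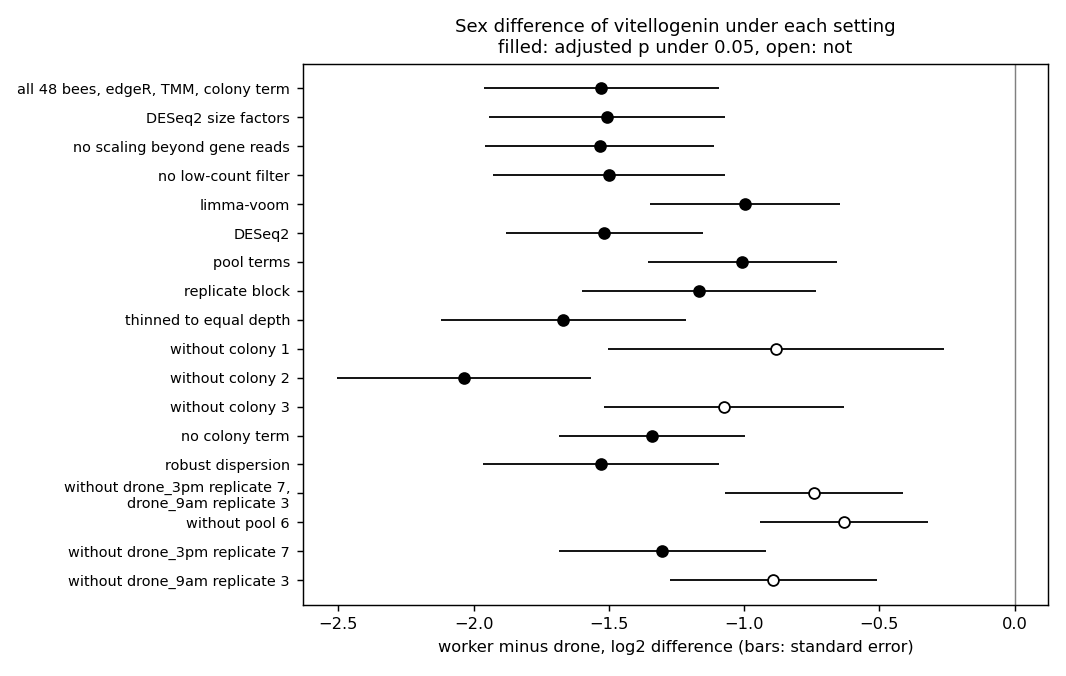
Worker minus drone difference of vitellogenin on the log2 scale, with its standard error, for the fit of all 48 bees, for each alternative and for the repeats that left out active drone 7 or inactive drone 3. All values lie below 0, from -0.63 without pool 6 to -2.04 without colony 2, and open symbols mark fits with an adjusted p of 0.05 or more.

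Vitellogenin did not pass the test between active and inactive bees of either sex. Workers preparing to forage had a median of 2.58 CPM and inactive workers 2.47 CPM, and their ranges were nested. The active minus inactive difference in workers was -0.38 ± 0.50 on the log2 scale (SE), with a 95% interval of -1.39 to 0.62 and an edgeR adjusted p of 0.748, where 2.31% of genes were called. On log2(CPM + 1) within colonies the difference in workers was -0.14 (two-sided permutation p = 0.595).

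In drones about to fly the median was 4.53 CPM, against 4.42 CPM in inactive drones. Their difference was 0.03 ± 0.51 on the log2 scale (SE), with a 95% interval of -0.998 to 1.05 and an edgeR adjusted p of 0.991, where 3.95% of genes were called. On log2(CPM + 1) within colonies it was 0.06 (two-sided permutation p = 0.893). The drone value depended on the 2 high drones, 1 in each group, as it was -0.53 without active drone 7, 0.59 without inactive drone 3 and 0.06 without both.

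Averaged over the sexes, active bees minus inactive bees gave -0.18 ± 0.36 (edgeR adjusted p = 0.832, where 7.7% of genes were called). The response of workers minus that of drones came to -0.41 ± 0.71, with a 95% interval of -1.85 to 1.03 (edgeR adjusted p = 0.899, where 0.26% of genes were called). The width of these intervals leaves it undetermined whether the level is the same in active and inactive bees.

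Workers lay below drones at the median in colonies 1 and 3 but not in colony 2, which had 3 drones. Only the difference in colony 1 passed after adjustment. With the 2 highest drones left out together, no colony passed after adjustment. In colony 1 the median was 2.42 CPM in 10 workers and 5.29 CPM in 7 drones, and the mean of log2(CPM + 1) differed by -1.13 (two-sided exact permutation p = 0.00596, adjusted over the 3 colonies 0.0179). In colony 3 the median was 1.88 CPM in 4 workers and 4.09 CPM in 14 drones, with a difference of -1.20 (two-sided exact permutation p = 0.0431, adjusted 0.0647). In colony 2 the median was 2.87 CPM in 10 workers and 2.81 CPM in 3 drones, with a difference of 0.14 (two-sided exact permutation p = 0.776). Without inactive drone 3 of colony 1 and active drone 7 of colony 3, the difference was -0.70 in colony 1 (two-sided exact permutation p = 0.0242, adjusted 0.0523) and -1.01 in colony 3 (two-sided exact permutation p = 0.0349, adjusted 0.0523). Whether the sex difference itself differed between colonies was not tested. With edgeR, the worker minus drone difference was -0.88 without colony 1 (adjusted p = 0.315), -2.04 without colony 2 (0.000724) and -1.08 without colony 3 (0.0537).

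Within workers, colony 2 held the 3 highest inactive bees, at 9.39, 7.04 and 6.38 CPM, and colony 3 the lowest, at 0.783 CPM. Workers of colony 2 had 1.42 to 9.39 CPM and workers of colony 1 had 0.817 to 5.08 CPM. Their difference, colony 2 minus colony 1, was a log2 value of 0.47 ± 0.52 (SE), with an edgeR adjusted p of 0.999 (where 0.555% of genes were called).

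Within drones, those of colony 3 had 1.56 to 34.8 CPM and those of colony 1 had 2.16 to 45.1 CPM. Their difference, colony 3 minus colony 1, was -0.66 ± 0.56 (SE, edgeR adjusted p = 0.668, where 3.3% of genes were called), and 0.11 without active drone 7 and inactive drone 3.

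Active and inactive workers lay in opposite orders in different colonies. Active workers had a median of 2.48 CPM in colony 1, 2.78 CPM in colony 2 and 2.41 CPM in colony 3, and inactive workers had 2.05, 6.38 and 1.20 CPM in the same order. None of these passed a two-sided exact permutation test on log2(CPM + 1), with p = 0.73 in colony 1, 0.119 in colony 2 and 0.333 in colony 3, the last being the smallest p that 2 bees against 2 can give. Active drones had medians of 6.66 CPM in colony 1 and 4.53 CPM in colony 3, and inactive drones 4.93 and 3.97 CPM, with exact permutation p of 1 and 0.75. The active minus inactive difference of log2(CPM + 1) in drones was -0.03 in colony 1 and 0.20 in colony 3, and without the 2 highest drones it was 0.61 and -0.15 (exact permutation p = 0.2 and 0.763). In colony 2 the 2 active drones had 2.46 and 2.81 CPM and the only inactive drone 3.96 CPM, which allowed no test.

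**Figure D3:**
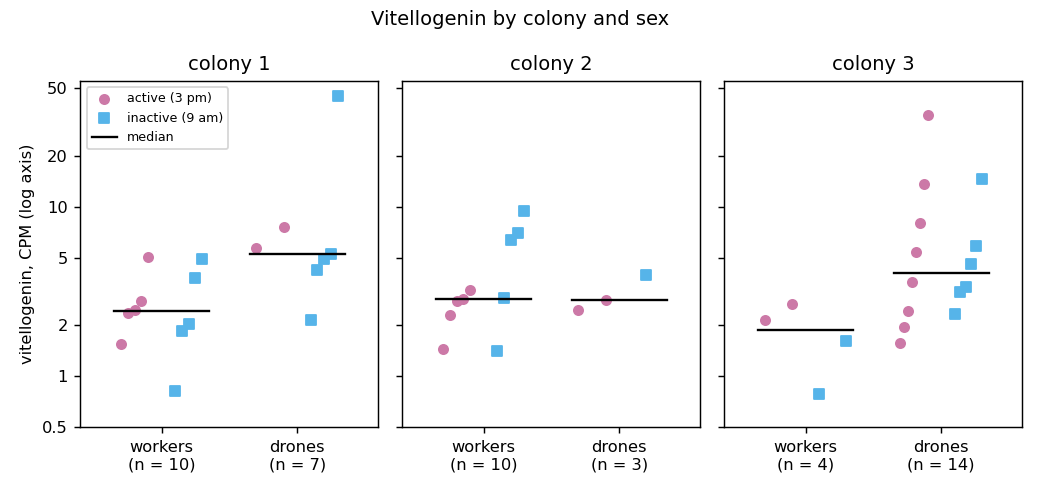
Vitellogenin level in CPM on a log axis by colony and sex, with active bees as circles, inactive bees as squares and the median of each sex as a black line. Workers lie below drones at the median in colonies 1 and 3, at 2.42 against 5.29 CPM and 1.88 against 4.09 CPM, and the medians of colony 2 are 2.87 CPM in workers and 2.81 CPM in drones.

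Pool 6 held 3 of the 4 drones above 10 CPM. Its 4 drones had 5.44, 14.6, 34.8 and 45.1 CPM, and its 3 workers had 0.817, 2.84 and 6.38 CPM. The workers of the pool lay within the range of other workers, whereas its drones were all above the drone median. Colony and activity were mixed in these drones, which came from colonies 1 and 3 and from both times. In the other pools of both sexes the medians of 4 workers and 4 drones were 2.18 and 2.66 CPM in pool 1, 1.70 and 6.08 CPM in pool 2, 4.09 and 3.34 CPM in pool 3, 4.45 and 3.78 CPM in pool 4, and 2.46 and 4.05 CPM in pool 5. Workers were thus lower than drones at the median in pools 1, 2, 5 and 6 and higher in pools 3 and 4.

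The lowest two-sided exact permutation p among the 6 pools was 0.0571, in pool 2 (adjusted over the 6 pools 0.257). The smallest p that 4 bees against 4 can give is 0.0286. In pool 6, where the difference was -2.44 (exact permutation p = 0.0857), 3 workers against 4 drones can give no p below 0.0571, so that pool could not pass. Without pool 6 the worker minus drone difference was -0.63 with edgeR (adjusted p = 0.0991) and -0.51 in the permutation test within colonies (two-sided permutation p = 0.0181). At 3 pm it was then -1.04 (edgeR adjusted p = 0.0431) and at 9 am -0.23 (edgeR adjusted p = 0.737). The part of the pool in the high drone values was not tested.

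**Figure D4:**
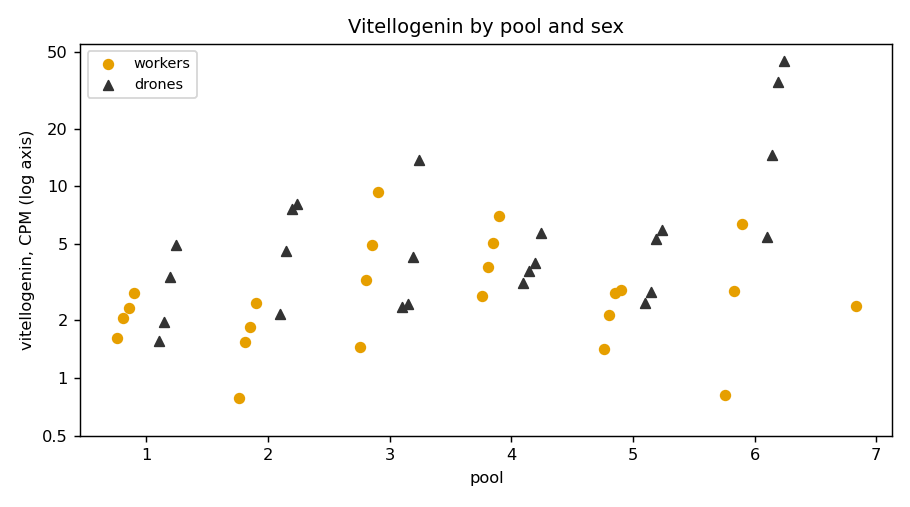
Vitellogenin level in CPM on a log axis by pool, with workers as circles left of drones as triangles. The 4 drones of pool 6 run from 5.44 to 45.1 CPM, and the 3 workers of the same pool from 0.817 to 6.38 CPM.

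Vitellogenin varied more between bees of the same group than most genes did. Its residual SD on the log2 CPM scale, after group and colony, was 1.10, against a median of 0.37 over all genes tested, and 95.8% of them were below it. Among the 1316 genes within 0.5 log2 CPM of its mean abundance, 94.5% were below it. The biological coefficient of variation fitted by edgeR was 0.777, where the trend for genes of its abundance gave 0.417. Within groups the SD of log2 CPM was 0.88 in workers and 1.25 in drones, above 90.7% and 96.5% of genes, and above 89.3% and 94.3% of the genes of like abundance. Without the 2 highest drones the SD in drones was 0.87, above 88.1% of genes and 85.4% of those of like abundance. The residual SD was then 0.89, above 90.0% of genes and 87.5% of those of like abundance. The biological coefficient of variation was then 0.600 beside a trend of 0.447. The bees left out were chosen by their vitellogenin and not by the other genes.

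The larger spread in drones did not pass a test on the log scale. The mean absolute deviation of log2(CPM + 1) from the bee's own group median was 0.473 in workers and 0.743 in drones (difference -0.27, two-sided permutation p = 0.149). On CPM without the log the difference was -3.69 CPM (two-sided permutation p = 0.0382), and without active drone 7 and inactive drone 3 the log-scale difference was -0.06 (permutation p = 0.643).

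The relation of vitellogenin to read depth passed no test in either sex. Pearson's r between log2(CPM + 1) and gene reads was -0.03 in the 24 workers (permutation p = 0.899) and -0.07 in the 24 drones (permutation p = 0.759), and Spearman's rho was 0.09 (permutation p = 0.677) and -0.07 (permutation p = 0.728). The share of reads outside annotated genes, which ran from 24.5 to 31.8% of a file's entries, was lower in workers with more vitellogenin (Pearson's r = -0.52, permutation p = 0.00835, adjusted over 6 relations 0.0501; Spearman's rho = -0.53, permutation p = 0.00865, adjusted 0.0519), and this missed the threshold after adjustment. Without the 2 workers farthest from the median share, r was -0.51. In drones r was -0.27 (permutation p = 0.2) and rho -0.36 (permutation p = 0.0858), and r was -0.41 without the 2 farthest drones. The third measure, the share of ambiguous reads, gave r of 0.46 in workers (permutation p = 0.0237, adjusted 0.071) and 0.24 in drones (permutation p = 0.255), and rho of 0.44 (permutation p = 0.0318, adjusted 0.0955) and 0.30 (permutation p = 0.157). Without the 2 farthest bees, r was 0.45 in workers and 0.15 in drones.

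Likeness of other genes to vitellogenin was measured as Spearman's correlation of log2 CPM with vitellogenin across the 48 bees, after the means of group and colony had been subtracted, over the 9477 genes whose mean log2 CPM reached 1. The points share libraries and read depth, and the values describe these bees only. Pool was not subtracted, so likeness between genes was not separated from a pattern shared by bees of the same pool. The median gene had a correlation of 0.01, and 59 genes lay above 0.5 and 53 below -0.5. The closest genes were GB44798 (0.66) and GB45775 (0.64), and those with the most opposite pattern were GB44496 (-0.67) and GB46784 (-0.63). Counted from the highest correlation, GB44798 and GB45775 ranked 165.5 and 85 in workers alone, and 2 and 39.5 in drones alone. GB44496 and GB46784 ranked 9443 and 9471 in workers alone, and 9472.5 and 9457.5 in drones alone. The 4 genes were chosen over all 48 bees, and none of them held the highest or lowest rank in either sex alone. Their ranks and correlations in parts of these same bees are no separate check of that choice. Their names are not paired with these identifiers in the tables, and only these 4 are given.

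GB45775 shared its highest bees in part with vitellogenin. Workers had 2.14 to 7.55 CPM when active and 1.18 to 5.97 CPM when inactive, and drones had 4.39 to 22.3 CPM when active and 2.72 to 25.9 CPM when inactive. Inactive drone 3 had 25.9 CPM and active drone 7 had 22.3 CPM, the 2 highest values of that gene, and active drone 9, the fourth bee in vitellogenin at 13.7 CPM, came next at 19.0 CPM. Inactive drone 8, the third bee in vitellogenin at 14.6 CPM, had 9.14 CPM of GB45775, less than the 14.8 CPM of inactive drone 4, whose vitellogenin was 4.93 CPM. With edgeR, GB45775 was lower in workers than in drones by a log2 difference of -1.31 ± 0.26 (SE, adjusted p = 5.69e-05, where 45.7% of genes were called). Its correlation with vitellogenin was 0.60 in workers, 0.61 in drones and 0.60 without active drone 7 and inactive drone 3. These bees were among those used to choose the gene, so the values are no separate check.

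GB44798 shared the direction of vitellogenin but not its 2 highest bees. Its correlation was 0.56 in workers, 0.77 in drones and 0.64 without the 2 highest drones, and its highest bee was inactive drone 8 at 97.4 CPM. Inactive drone 3 and active drone 7 had 69.6 and 72.1 CPM of it, within the range of other drones. The drones of pool 6 had 69.6, 72.1, 76.4 and 97.4 CPM, all above the medians of both drone groups. The workers of that pool had 35.3, 36.8 and 37.1 CPM, all below the worker medians. The part of the pool in the correlations was not tested. Workers had medians of 39.3 and 39.9 CPM when active and inactive, and drones 57.0 and 54.7 CPM. The worker minus drone log2 difference was -0.36 ± 0.14 (SE, edgeR adjusted p = 0.0298, where 45.7% of genes were called).

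The genes with the opposite pattern differed little between the sexes. GB44496 had medians of 71.5 and 86.2 CPM in active and inactive workers and 81.4 and 79.8 CPM in active and inactive drones, and its correlation with vitellogenin was -0.62 in workers and -0.65 in drones. GB46784 had medians of 9.08 and 10.4 CPM in active and inactive workers and 8.33 and 9.50 CPM in active and inactive drones, with correlations of -0.68 in workers and -0.60 in drones. Neither passed the test between workers and drones (edgeR adjusted p = 0.797 and 0.0694), where 45.7% of genes were called. None of the 4 genes passed between active and inactive workers or drones, where only 2.31% and 3.95% of genes were called.

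**Figure D5:**
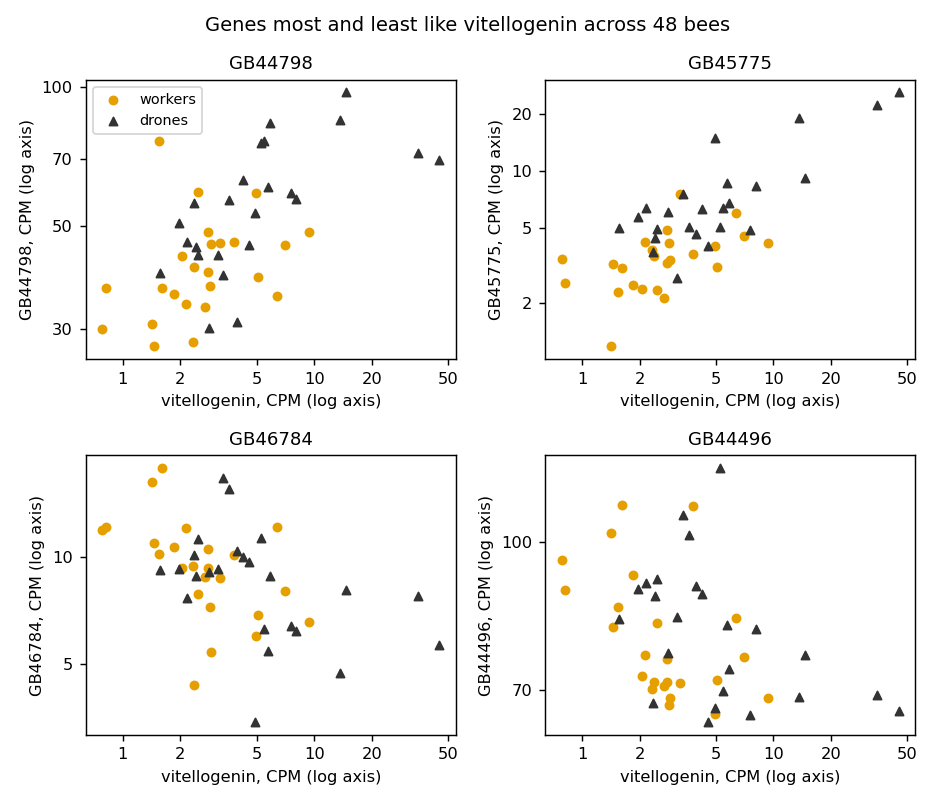
Level of each of the 4 genes in CPM against vitellogenin in CPM, both on log axes, with 1 point per bee, workers as circles and drones as triangles. GB44798 and GB45775 are higher in bees with more vitellogenin, GB46784 and GB44496 are lower, and the 2 drones at 34.8 and 45.1 CPM of vitellogenin are also the highest bees of GB45775.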

How the data were processed

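Per the labels, mushroom bodies were dissected from frozen heads, and poly(A)-enriched RNA was made into directional libraries, 1 per bee. The deposited values are counts of reads for each gene, not normalized by the authors as far as the whole numbers show. The submitters' processing notes name HTSeq 0.5.4 and TopHat2 2.0.10, then CASAVA 1.8.2 and Trimmomatic 0.30, as well as edgeR 3.4.2 and SAMtools, without their roles. Counting mode and strand setting: not given in the sources used here. The 5 summary rows of each file were left out of library sizes.

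CPM was the count over the sum of gene rows. Tests used edgeR 4.0.16 in R 4.3.3: filterByExpr by group left 11167 of 15314 genes, libraries were scaled by TMM, and a quasi-likelihood model of 4 groups with colony was fitted to all libraries. Colony comparisons used colony terms within each sex. Adjusted p-values are Benjamini-Hochberg over all genes tested, with a threshold of 0.05. SE is the log2 difference over the root of F, and intervals use 42 residual degrees of freedom (40 for colonies). Permutation tests used 100000 resamples, or all arrangements within a colony or pool, on log2(CPM + 1). The fit was tested on simulated data.

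Alternatives included DESeq2 1.42.0 and limma-voom (limma 3.58.1). Leaving out the 2 highest drones together (also within colonies and for the spread) or pool 6, robust dispersions, and tests within colonies or pools between the sexes were chosen after seeing the data. The gene, the lists and the rule for similar genes (the 2 highest and 2 lowest correlations) were chosen with earlier results of these data known. The main tests did not use the title numbers to pair bees.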

Additional observations from a re-analysis of the deposited data

Results flagged for a closer look

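Within 11 sets of 4 to 10 bees of 1 colony, formed by group or by sex, the highest and lowest bees were compared with the rest of the set by Dixon's ratio of gap to range, which chance alone passes in about 5% of sets where values are normally distributed. CPM values here were skewed to the right, and the rate for such values was not tested. The ratio was passed 4 times, each time by a high drone and in sets that partly share bees. Active drone 7 had 34.8 CPM among the 8 active drones of colony 3, where the next highest had 13.7 CPM. Inactive drone 3 had 45.1 CPM among the 5 inactive drones of colony 1, where the next highest had 5.29 CPM. The same bee stood apart among the 7 drones of colony 1, where the next highest had 7.58 CPM. Inactive drone 8 had 14.6 CPM among the 6 inactive drones of colony 3, where the next highest had 5.89 CPM. On log2(CPM + 1), a scale chosen after seeing the data, the ratio was passed 2 times in the 11 sets, both by inactive drone 3. These 3 drones were all in pool 6, and 0 workers passed the ratio. The ratio sets only the highest bee against the next. Active drone 9 of pool 3, at 13.7 CPM, therefore could not pass in the set that held active drone 7. The part of the pool in these values was not tested.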

How the results depend on the processing

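Of 150 values under alternatives other than leaving out single bees, 126 kept both direction and side of the threshold, 10 lost the call, 4 gained it and 10 changed sign, the last all in comparisons that passed in no setting. Values are log2 differences with adjusted p in brackets. Worker minus drone was -0.88 without colony 1 (0.315), -1.08 without colony 3 (0.0537), -0.74 without the 2 highest drones (0.0635) and -0.63 without pool 6 (0.0991). At 3 pm it was -0.98 with limma-voom (0.105), -1.12 with pool terms (0.0571), -1.51 without colony 1 (0.123), -0.74 without colony 3 (0.460) and -0.96 without the 2 highest drones (0.067). At 9 am, where it was -1.32 (0.0641), it passed with DESeq2 at -1.30 (0.0251), without colony 2 at -2.08 (0.0129) and with no colony term at -1.21 (0.0453), and it was smaller with pool terms at -0.89 (0.142), without the 2 highest drones at -0.52 (0.4), without colony 1 at -0.25 (0.899) and without pool 6 at -0.23 (0.737). The spread without the log, a difference in CPM and not in log2, passed at -3.69 CPM (unadjusted two-sided permutation p = 0.0382). Permutation results in this count were all judged by the unadjusted p.

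Active minus inactive was 0.34 in workers and 0.30 on average without colony 2, and in drones -0.046 with limma-voom, -1.27 without colony 3 and -0.17 with no colony term. The response of workers minus that of drones came to 0.032 with limma-voom, 0.088 without colony 2 and 0.67 without colony 3. Colony 3 minus colony 1 in drones was 0.11 without the 2 highest drones. The cause was not tested.

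The title numbers were treated as names. Of 72 same-numbered pairs of bees, 25 had deviations from their group means correlated above 0.1. Pairs with different numbers were not compared, so this count cannot decide whether the numbers pair bees. With the replicate block, worker minus drone was -1.17 (adjusted p = 0.0299) and at 3 pm -1.25 (0.108). Colony 2 minus colony 1 in workers was then -0.0039 ± 1.22 (SE), where 0 of 11167 genes were called. Workers of the same number came from the same colony, so this fit could hardly estimate that difference.

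Leaving out each bee in turn gave ranges of -1.69 to -0.89 for worker minus drone, -1.95 to -1.23 at 3 pm, -1.48 to -0.40 at 9 am (passing in 6 of 48, and lowest in size without inactive drone 3), -0.53 to 0.59 for active minus inactive drones (-0.15 to 0.22 by permutation), -0.46 to 0.10 for the average, -0.99 to 0.14 for the difference of responses and -0.94 to 0.46 for colony 3 minus colony 1 in drones. With 9 to 483 vitellogenin reads per bee, depth limits single low bees more than the comparisons.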
